A study of Mus musculus with 6 samples.

Results

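Activated CD8 T cells secrete a small set of chemokines and cytokines, and 8 of their genes are described here: Ccl3, Ccl4, Ccl5, Xcl1, Ifng, Csf2, Il16 and Il10. They were chosen by symbol as CD8 T cell chemokines and cytokines outside the tumour necrosis factor superfamily, and all 8 were found among the 55536 genes of the deposited table. RNA was sequenced from T cells kept for 2 h with disulfiram (DSF), a thiuram disulfide given against alcohol dependence, or with dimethyl sulfoxide (DMSO), its solvent. Each group held 3 libraries, labelled as biological replicates with no animal or culture named, so the p-values measure the spread between these libraries. All cells of both groups were primary wild-type OT-I T cells from mouse lymph nodes. OT-I cells carry a transgenic receptor for an ovalbumin peptide, so they stand for 1 receptor specificity. The DSF concentration and any prior stimulation are not stated in the labels. The directions below rest on reading the deposited group codes DF and DO as DSF and DMSO.

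Chemokines are small secreted proteins that guide leukocytes through G protein-coupled receptors. CCL3, CCL4 and CCL5 of the CC family draw T cells, monocytes and other leukocytes, and XCL1, of the C family, draws cross-presenting dendritic cells that carry XCR1. Interferon gamma, encoded by Ifng, activates macrophages and raises antigen presentation, and GM-CSF, encoded by Csf2, acts on myeloid cells. IL-16 is kept as a precursor that is cleaved before release and binds CD4, and IL-10 restrains inflammation. Many cytokine messages are short-lived because proteins bind AU-rich elements in their 3′ untranslated regions (UTRs), so their levels can move within hours.

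The DSF libraries held 18082264 to 20951998 counts and the DMSO libraries 18528236 to 21893720, and a floor of 3 counts corresponded to 0.137 to 0.166 CPM (counts scaled to library size). The markers were those of CD8 T cells. Cd8a averaged 350.02 ± 5.64 CPM with DSF and 411 ± 5.05 CPM with DMSO (SD, n = 3 each), while Cd4 averaged 1.63 ± 0.411 and 1.22 ± 0.03 CPM. Values after ± are SDs of 3 libraries unless given as SE. The 8 CD8 T cell markers summed to 2234 to 2310 CPM with DSF and 2458 to 2507 CPM with DMSO. By edgeR's test 4 of them were lower with DSF and 0 higher (2 lower by limma on log2 TPM). Of all genes tested 11.3% were lower and 11.6% higher by edgeR. The part of the marker shift in the results below was not tested. In bulk RNA, fewer cells of a type and less RNA per cell cannot be told apart.

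AU-rich motifs in the 3′ UTRs separate Ccl5 and Il16 from the other genes of the set, which is why these sites are shown. The letters ATTTA stand in the annotated 3′ UTR of Ccl3, Ccl4, Xcl1, Ifng, Csf2 and Il10, and 0 times in those of Ccl5 and Il16. The first longer match, TATTTAT, of each of the 6 is given with up to 10 bases on either side, 5′ to 3′ on the transcript strand in DNA letters, from GENCODE M21 transcripts (GRCm38). Capitals mark TATTTAT.
Ccl3: tatttgtgacTATTTATtctgaaagac
Ccl4: ttatttctatTATTTATgttttagtta
Xcl1: aagtaataaaTATTTATtattgatga
Ifng: aatctaaaccTATTTATtaatatttaa
Csf2: gggaccattaTATTTATttatatattt
Il10: ctctccgaaaTATTTATtacctctgat

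Overlapping ATTTA matches on the transcript strand numbered 9 in the 317 bases of the Csf2 3′ UTR, 6 in the 631 bases of Ifng, 6 in the 706 of Il10, 5 in the 409 of Ccl3, 2 in the 302 of Ccl4 and 1 in the 141 of Xcl1. The densities ran from 6.62 per kb in Ccl4 to 28.4 per kb in Csf2. All 6 lay above 5.35 per kb, the 95th percentile of the 12110 tested genes with an annotated 3′ UTR, whose median was 1.28 per kb. The 3′ UTRs of all 6 were shorter than the median of those genes, 1163.5 bases. In a short one few matches give a high density, as with 1 match in the 141 bases of Xcl1. Among those genes 69.2% held ATTTA and 29.6% held TATTTAT. A match is a description of the letters and not a shown binding site. The 603 tested genes above that percentile had a median log2 fold change of -0.03, with 13.8% lower and 10.4% higher with DSF, against 12.3% lower and 12.9% higher over all 12110. The 3726 of them with no ATTTA in the 3′ UTR had a median of -0.01, with 10.4% lower and 8.67% higher. Genes without the motif thus also had more lower than higher.

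Of the 8 genes 7 had enough counts to be tested, and Il10 did not. By edgeR's quasi-likelihood test with Benjamini-Hochberg adjustment over 14318 genes, Ccl4, Ccl3, Xcl1 and Il16 were lower with DSF and 0 were higher, while Ccl5, Ifng and Csf2 did not pass. At an unadjusted p under 0.05 edgeR called 6 lower and 0 higher. The share over all genes at that threshold is not given, so this count cannot be judged against it. The same holds for the unadjusted counts of the lists and markers below. After adjustment DESeq2 called 4 lower and 0 higher, where it called 1220 lower and 1335 higher over all 14318 genes. By edgeR after adjustment, 11.3% of all genes tested were lower, 11.6% higher and 22.9% changed in either direction. In 5 of the 7 every DSF library lay below every DMSO library, where 17.9% of all genes tested were lower without overlap. The 4 that changed spanned falls to 0.401 of the DMSO level for Ccl4 and to 0.871 for Il16.

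**Figure D1:**
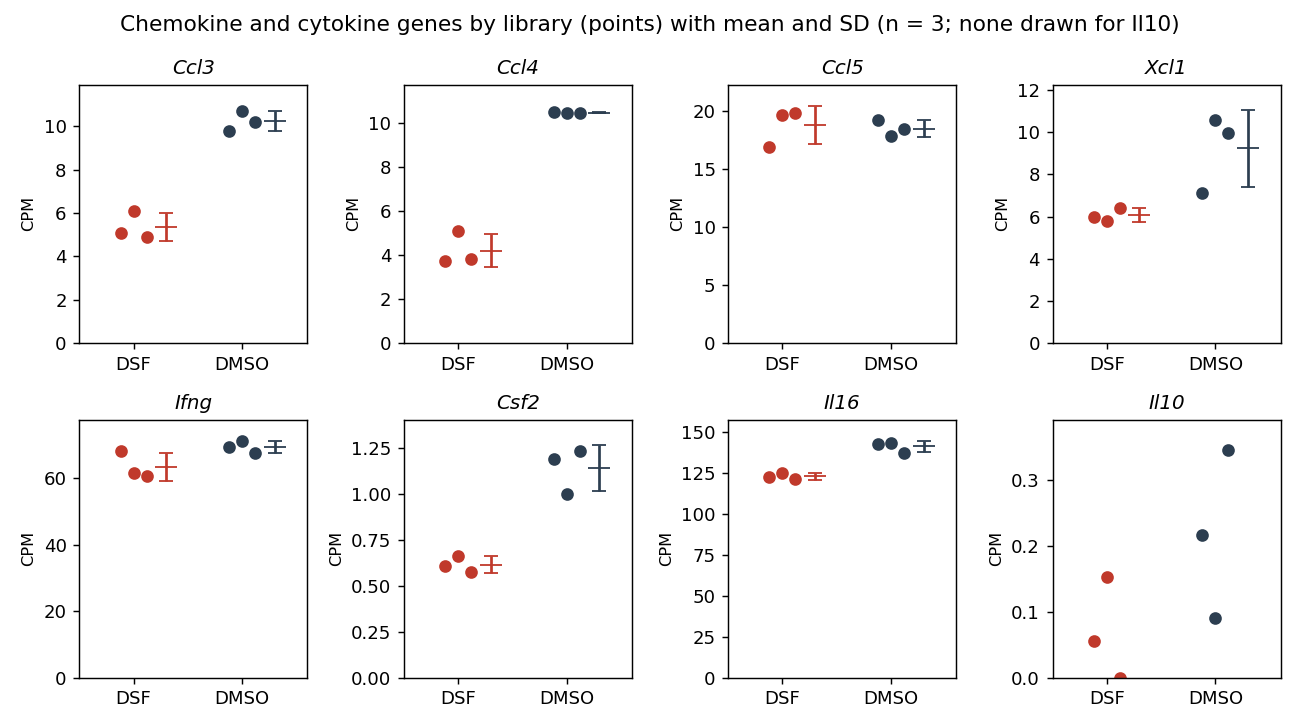
CPM of the 8 genes in each DSF and DMSO library (points) with the mean and SD of 3 libraries, each panel on its own linear axis from 0, and no mean drawn for Il10. The 3 DSF points lie below the 3 DMSO points for Ccl3, Ccl4, Xcl1, Csf2 and Il16, and the groups overlap for Ccl5, Ifng and Il10.

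Ccl4, which encodes a CC chemokine that draws T cells and monocytes, had the largest fall among the 7 genes tested. It had 3.71, 5.06 and 3.79 CPM in the DSF libraries, against 10.5, 10.4 and 10.4 CPM in the DMSO libraries. Every DSF library lay below every DMSO library, and the DMSO libraries sat close together. The log2 fold change was -1.32 ± 0.13 (SE), with edgeR's adjusted p of 2.14e-09, and 29 of the 14318 genes tested had a lower one. The rounded counts behind these values were 67, 99 and 79 with DSF and 194, 230 and 211 with DMSO. Ccl4 (ENSMUSG00000018930) lies on the plus strand of chromosome 11 at 83662584 to 83664683 of GRCm38.

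Ccl3, the neighbouring gene for a ligand of CCR1, (ENSMUSG00000000982) lies 13228 bases away on the opposite strand, at 83647844 to 83649355. It had 5.09, 6.08 and 4.89 CPM with DSF, against 9.79, 10.7 and 10.2 CPM with DMSO. The groups did not overlap, and DSF library 2 was the highest of its group for both Ccl3 and Ccl4. Its log2 fold change was -0.93 ± 0.12 (SE), with edgeR's adjusted p of 4.03e-07. No stretch of 31 bases of either transcript occurs in a transcript of another annotated gene, so reads of this length would not be split between them.

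The 2 neighbours were also set against each other within each library. The log2 CPM of Ccl3 minus that of Ccl4 was 0.36 ± 0.09 with DSF and -0.03 ± 0.07 with DMSO (SD, n = 3 each), a difference of 0.39 ± 0.07 (SE). The groups did not overlap, and the exact two-sided permutation test gave p = 0.1, the smallest that 3 against 3 libraries allow (adjusted p = 0.15 over 21 pairs of genes). None of the 21 pairs could pass 0.05 in this design.

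Ccl5, which encodes a further CC chemokine that binds CCR1 and CCR3, did not pass the test. It had 16.9, 19.7 and 19.8 CPM with DSF, against 19.2, 17.8 and 18.5 CPM with DMSO. The groups overlapped, and the lowest value of all 6 was that of DSF library 1. Its log2 fold change was 0.03 ± 0.08 (SE), with edgeR's adjusted p of 0.85, and it was -0.01 without DSF library 3. Ccl5 (ENSMUSG00000035042) lies on the minus strand of the same chromosome, at 83525778 to 83530518. The log2 CPM of Ccl4 minus that of Ccl5 was -2.15 ± 0.21 with DSF and -0.82 ± 0.05 with DMSO, without overlap (exact permutation p = 0.1, adjusted p = 0.15).

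Xcl1, which encodes lymphotactin, the chemokine of cross-presenting dendritic cells, also fell. It had 5.98, 5.78 and 6.43 CPM with DSF, against 7.14, 10.6 and 9.98 CPM with DMSO. DMSO library 1 lay nearest to the DSF libraries, which were close to each other. Its log2 fold change was -0.61 ± 0.13 (SE), with edgeR's adjusted p of 0.000826, and it ran from -0.76 to -0.50 as each library was left out. On log2(TPM + 0.5), where TPM is the level per gene length scaled to a fixed sum, limma's adjusted p was 0.0508. Xcl1 (ENSMUSG00000026573) lies on the minus strand of chromosome 1 at 164931644 to 164935527. An annotated transcript of Gm20743 on the opposite strand covers 18.7% of its exon bases. That gene had 18, 20 and 15 counts with DSF and 31, 28 and 30 with DMSO, and the sources used here do not say whether strand was used in counting.

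Chemokines of this set are also made by natural killer cells. Of 4 markers of those cells 2 were tested and 0 passed, with sums of 5.91 to 8.35 CPM with DSF and 6.62 to 7.66 CPM with DMSO. The 2 tested were Klrb1c, at 55 to 69 counts with DSF and 55 to 66 with DMSO, and Klre1, at 57 to 82 and 76 to 86. Ncr1, a defining receptor gene, reached no more than 4 counts in a library and Klra8 no more than 1. At an unadjusted p under 0.05 edgeR called 0 of the 2, as did DESeq2 and limma after adjustment.

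Ifng, the gene for interferon gamma, was the most abundant of the 8 per length and did not pass the test. It had 68.2, 61.4 and 60.5 CPM with DSF, against 69.3, 71.2 and 67.5 CPM with DMSO. DSF library 1 lay within the DMSO range, and the other DSF libraries lay below it. The log2 fold change was -0.13 ± 0.05 (SE), with edgeR's adjusted p of 0.067, or 0.0198 without DSF library 1 and 0.0299 with the replicate number as a block. Ifng (ENSMUSG00000055170) lies on the plus strand of chromosome 10 at 118441046 to 118445892. Gm49751, an unclassified gene on the same strand, shares 25.9% of its exon bases, so reads could be split between both. Gm49751 had 189, 236 and 281 counts with DSF and 206, 207 and 212 with DMSO.

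Csf2, the gene for GM-CSF, was near the lower limit of what could be tested. It had 11, 13 and 12 counts with DSF, against 22, 22 and 25 counts with DMSO. The groups did not overlap, at 0.609, 0.665 and 0.576 CPM with DSF and 1.19, 1.00 and 1.24 CPM with DMSO. The log2 fold change of -0.88 ± 0.33 (SE) missed the threshold of edgeR's test (adjusted p = 0.0519), while limma on log2(TPM + 0.5) gave an adjusted p of 0.0148. Csf2 (ENSMUSG00000018916) lies on the minus strand of chromosome 11 at 54247271 to 54249667, far from the chemokine genes.

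Il16, which encodes the precursor of a CD4-binding cytokine, had the highest CPM of the set and a small fall. It had 122.5, 125 and 120.9 CPM with DSF, against 142.8, 143 and 137 CPM with DMSO. All 3 DSF libraries lay below all 3 DMSO libraries. This was a log2 fold change of -0.20 ± 0.04 (SE), with edgeR's adjusted p of 0.000323. The gene (ENSMUSG00000001741) spans 83642825 to 83745726 on the minus strand of chromosome 7, has 6 annotated transcripts, and shares 15.3% of its exon bases with Stard5 on the opposite strand. Stard5 had 121, 137 and 154 counts with DSF and 114, 153 and 174 with DMSO.

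Il10, which encodes an anti-inflammatory cytokine, was close to the detection floor. It had 1, 3 and 0 counts with DSF, against 4, 2 and 7 counts with DMSO. The ratio of the summed counts per library size, DSF over DMSO, was 0.318, with an exact 95% interval of 0.075 to 1.03 that covers counting error only. A difference was not detectable at this depth. Il10 (ENSMUSG00000016529) lies on the plus strand of chromosome 1 at 131019845 to 131024974.

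**Figure D2:**
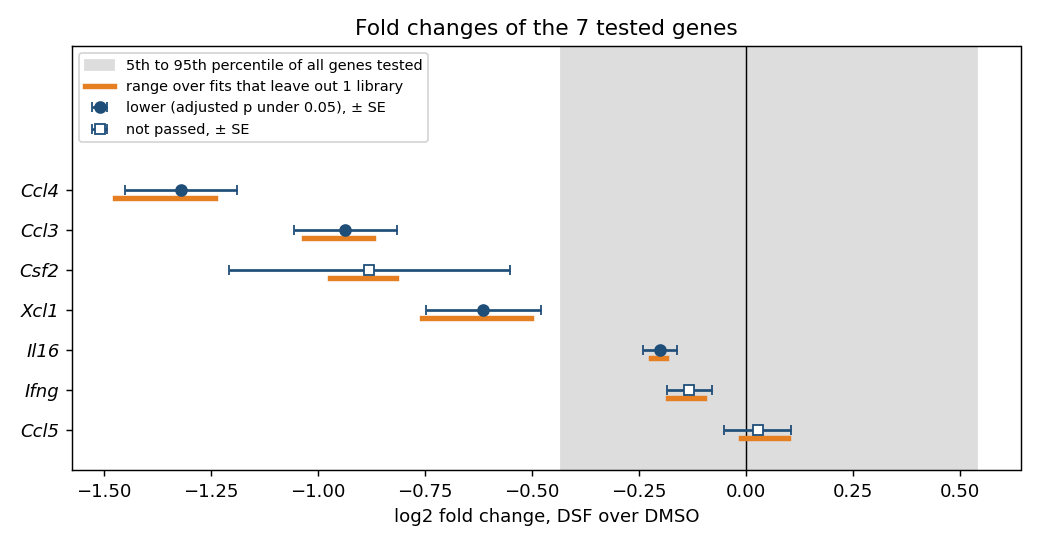
Log2 fold changes (DSF over DMSO) of the 7 tested genes with their SE, beside the range over fits that leave out 1 library each and the 5th to 95th percentile of all genes tested (grey). Ccl4, Ccl3, Csf2 and Xcl1 lie left of the grey band, and Il16, Ifng and Ccl5 lie inside it.

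Levels between genes were set side by side in TPM, which divides by gene length. With DSF the order was Ifng at 93.5 ± 4.71 TPM, Ccl5 at 87.0 ± 7.35, Il16 at 52.4 ± 1.02, Xcl1 at 29.4 ± 1.77, Ccl3 at 13.3 ± 1.56, Ccl4 at 13.2 ± 2.36 and Csf2 at 1.43 ± 0.101 TPM (SD, n = 3). With DMSO it was Ifng at 100.3 ± 5.26 TPM, Ccl5 at 84.4 ± 3.28, Il16 at 59.2 ± 0.901, Xcl1 at 44.15 ± 8.79, Ccl4 at 32.5 ± 0.0985, Ccl3 at 25.0 ± 1.28 and Csf2 at 2.61 ± 0.293 TPM. Ifng overlapped with Ccl5, and Ccl3 with Ccl4, among the DSF libraries, while no neighbours in that order overlapped among the DMSO libraries. Il10 was last in both groups, at no more than 0.18 TPM in a DSF library and 0.41 TPM in a DMSO library.

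The 8 genes summed to 290.4 ± 5.28 TPM with DSF and 348 ± 6.06 TPM with DMSO (SD, n = 3 each), and the 4 chemokine genes to 143 ± 9.57 and 186 ± 7.06 TPM. Ccl4 made up 4.54% of the summed TPM of the 8 genes with DSF and 9.33% with DMSO on average, and Ccl3 4.58% and 7.18%. Ccl5 made up 29.9% with DSF and 24.2% with DMSO, with a larger share in every DSF library than in any DMSO library. Its share was taken of a lower sum with DSF. Its own TPM overlapped between the groups, at 78.57 to 91.97 with DSF and 81.16 to 87.72 with DMSO. The deposited length behind TPM is of a kind that the files do not state. Il16 has 6 annotated transcripts and Ifng and Ccl5 2 each, so their levels per length are less certain than the others. For Ifng, DMSO library 2 had the highest CPM of its group, at 71.2, but the lowest TPM, at 94.19.

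**Figure D3:**
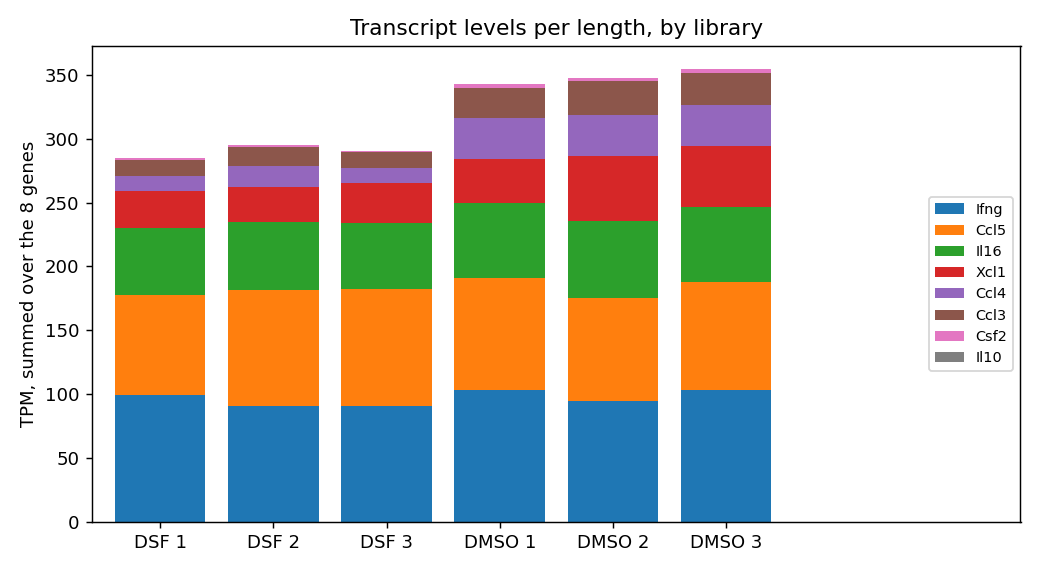
Summed TPM of the 8 genes in each DSF library (left) and each DMSO library (right), stacked by gene. The DSF bars reach 284.9 to 295.4 TPM and the DMSO bars 343 to 355 TPM, with thinner Ccl3 and Ccl4 bands in the DSF bars.

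The receptors of these ligands went both ways. Of 14 receptor genes 12 were tested, and 3 were lower, 3 higher and 6 did not pass (3 lower and 2 higher by DESeq2), at a median log2 fold change of 0.01 against -0.0027 over all genes tested. The shares by edgeR over all genes tested, 11.3% lower and 11.6% higher, stand beside the counts of this and the later lists. Il10ra, which encodes the ligand-binding chain of the IL-10 receptor, was at 22.9 ± 0.973 CPM with DSF and 35.4 ± 1.07 CPM with DMSO, a log2 fold change of -0.63 ± 0.06 (SE). Xcr1, the receptor gene for XCL1, was at 5.38 ± 1.1 CPM with DSF and 10.7 ± 1.58 CPM with DMSO. Both were lower by edgeR's test, with adjusted p of 2.78e-09 and 2.73e-06. Il10rb, a further IL-10 receptor gene, was among the 3 higher. It was at 78.1 ± 2.99 CPM with DSF and 66.5 ± 2.02 CPM with DMSO (edgeR's adjusted p = 0.000469).

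Xcr1 is known from dendritic cells, so markers of other cells bear on it. Clec9a, which marks the same dendritic cells, had 0 counts in every DSF library and at most 1 in a DMSO library, and Siglech had 0 in all 6. Other markers of the list were detected. Zbtb46 had 31 to 42 counts with DSF and 13 to 33 with DMSO (edgeR's adjusted p = 0.183), and Itgax 44 to 46 and 45 to 57. Lyz2 had 203 to 232 counts with DSF and 208 to 259 with DMSO, and Cd68 371 to 444 and 363 to 477. Of 10 myeloid and dendritic cell markers 7 were tested and 0 passed edgeR's test, also at an unadjusted p under 0.05, with sums of 40.6 to 42.4 CPM with DSF and 40.1 to 44.5 CPM with DMSO. The 4 mast cell and basophil markers summed to 5.25 to 6.02 CPM with DSF and 6.37 to 6.65 CPM with DMSO, with 0 of 4 called, and their part in any result was not tested. Of 6 B cell markers 0 passed and 1 was lower at an unadjusted p under 0.05, at 33.6 to 36.4 CPM with DSF and 34.1 to 37.5 CPM with DMSO. Of 6 stromal, endothelial and erythroid markers 3 were tested and 0 passed, at 31.6 to 36.7 and 33.4 to 36.8 CPM. Of 4 CD4 and regulatory T cell markers 3 were tested, and Zbtb7b was higher and 0 lower, at summed levels of 31.3 to 35.03 CPM with DSF and 25.5 to 29.6 CPM with DMSO.

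Most other chemokine genes were scarce. Of 32, 9 had enough counts for a test, and 0 passed edgeR's test in either direction, with a median log2 fold change of 0.09. DESeq2 and limma also called 0, and at an unadjusted p under 0.05 edgeR called 1 higher. Cxcl16, which encodes a transmembrane chemokine, came nearest, at 1.49 ± 0.458 CPM with DSF and 0.873 ± 0.1 CPM with DMSO (edgeR's adjusted p = 0.0694, or 0.0228 without DSF library 2). Ccl27a was at 2.35 ± 0.353 and 1.90 ± 0.443 CPM, and Ccl6 at 5.28 ± 0.485 and 4.74 ± 0.239 CPM. Ccl25 and Ccl22 were not scarce, with means above those of Ccl3, Ccl4 and Xcl1 in both groups. Ccl25 was at 19.3 ± 1.05 CPM with DSF and 19.4 ± 2.27 CPM with DMSO, and Ccl22 at 16.9 ± 1.52 and 15.8 ± 1.19 CPM.

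Among 35 other cytokine genes outside the tumour necrosis factor superfamily 13 were tested, and 2 were higher and 1 lower by edgeR's test (2 higher and 0 lower by DESeq2 and by limma on log2 TPM), at a median log2 fold change of -0.10. Csf1, the gene for macrophage colony-stimulating factor, was at 21.3 ± 0.103 CPM with DSF and 9.77 ± 0.887 CPM with DMSO, a log2 fold change of 1.12 ± 0.09 (SE, edgeR's adjusted p = 6.96e-12). Tgfb3, which encodes a transforming growth factor beta, was at 12.9 ± 0.957 and 7.38 ± 0.917 CPM and was also higher (edgeR's adjusted p = 9.48e-07). Lif, the gene for leukemia inhibitory factor, was lower, at 12.01 ± 1.57 and 15.0 ± 0.615 CPM (edgeR's adjusted p = 0.0135). That call ended without DSF library 1 or 3 or DMSO library 2 (edgeR's adjusted p = 0.0995, 0.0662 and 0.072). It also ended by DESeq2 (adjusted p = 0.0552) and by limma on log2(TPM + 0.5), where the log2 fold change was -0.19 against -0.32 by edgeR (limma's adjusted p = 0.597). Il2, the gene for the T cell growth factor, reached no more than 2 counts in a library and could not be tested.

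**Figure D4:**
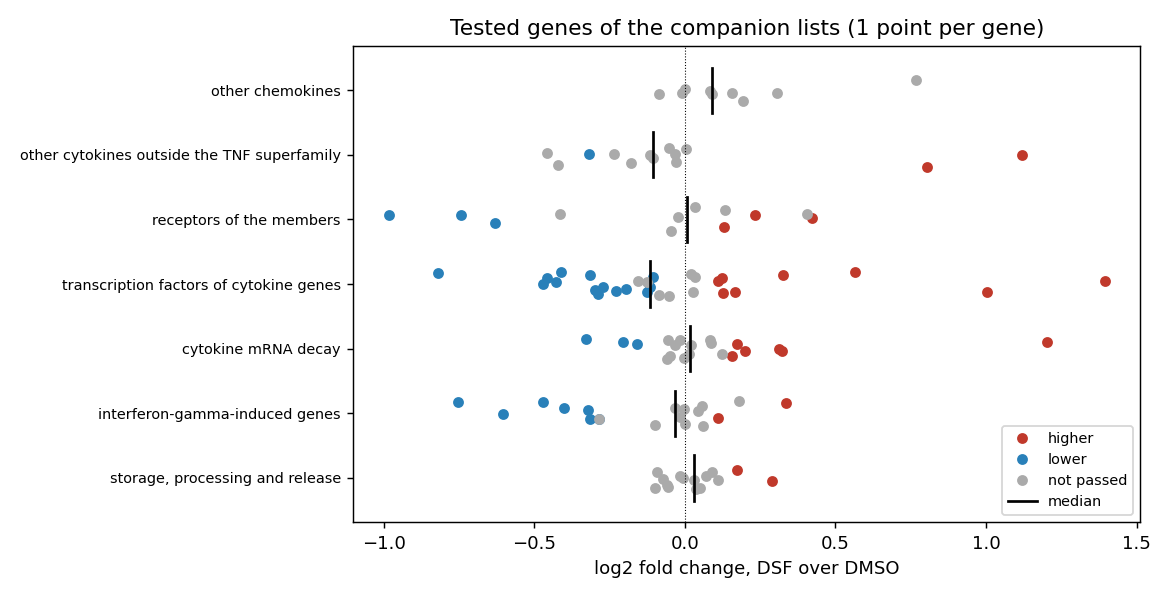
Log2 fold changes (DSF over DMSO) of the tested genes of 7 lists related to the chemokine and cytokine genes, 1 point per gene, with the median of each list as a bar. Points to the left are lower with DSF, and the list medians lie between -0.11 and 0.09.

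Transcription factors that act on cytokine genes were split. Of 30, 29 were tested, and 14 were lower, 8 higher and 7 did not pass, at a median log2 fold change of -0.11. Of all genes tested 11.3% were lower and 11.6% higher by edgeR. By limma on log2(TPM + 0.5), 8 of the 29 were lower and 5 higher, beside 538 lower and 809 higher among all 14318 genes. Atf3, a stress-induced factor of the ATF/CREB family, was at 71.3 ± 4.57 CPM with DSF and 27.1 ± 1.62 CPM with DMSO, a log2 fold change of 1.39 ± 0.06 (SE). Prdm1, which encodes BLIMP-1, was at 24.0 ± 1.02 and 42.5 ± 1.38 CPM. By edgeR's test both changed, with adjusted p of 1.58e-18 and 2.81e-12. Tbx21, which encodes the T-bet factor that acts on Ifng and was named after its value was seen, was lower at 50.5 ± 0.092 and 69.2 ± 5.2 CPM (edgeR's adjusted p = 6.16e-08).

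Of 20 genes that control cytokine message decay, all tested, 6 were higher, 3 lower and 11 did not pass, at a median log2 fold change of 0.02. By limma on log2(TPM + 0.5), 4 were higher and 0 lower. Zc3h12d, which encodes a Regnase-family protein, was at 126 ± 0.961 CPM with DSF and 54.8 ± 1.97 CPM with DMSO, a log2 fold change of 1.20 ± 0.05 (SE). Rc3h1, the gene for Roquin-1, was at 157 ± 2.92 and 126 ± 8.77 CPM, and N4bp1, which encodes an endoribonuclease-like protein, at 96.6 ± 4.48 and 77.2 ± 3.94 CPM. All 3 were higher by edgeR's test, with adjusted p of 2.75e-19, 1.63e-06 and 6.48e-06. Rc3h1 missed the threshold by limma on log2(TPM + 0.5) (limma's adjusted p = 0.078). Zfp36, which encodes tristetraprolin, a protein that binds AU-rich elements, was at 59.6 ± 3.39 and 54.7 ± 3.51 CPM, short of the threshold (edgeR's adjusted p = 0.112). It was named after its value was seen.

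Among genes known to be induced by interferon gamma, more were lower than higher. Of 22, 19 were tested, and 7 were lower, 2 higher and 10 did not pass, at a median log2 fold change of -0.03, near that of all genes. In 4 of the 6 fits that left out a library 1 was higher. Igtp and Iigp1, which encode immunity-related GTPases, were at 334 ± 6.05 and 78.6 ± 3.06 CPM with DSF and at 507 ± 4.36 and 132 ± 6.43 CPM with DMSO. Both were lower by edgeR's test, with adjusted p of 7.12e-16 and 4.02e-14. The 2 that were higher were Gbp2 and Irf1, the first at 199 ± 4.55 CPM with DSF and 157 ± 7.87 CPM with DMSO. Several of these genes also respond to type I interferon.

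Of 15 genes for storage, processing and release of secreted proteins, all tested, 2 were higher and 0 lower by edgeR and by DESeq2, at a median log2 fold change of 0.03. By limma on log2(TPM + 0.5), 1 was higher and 0 lower. At an unadjusted p under 0.05 edgeR called 3 higher and 2 lower, and with the replicate number as a block 2 were higher and 2 lower. Vamp3, a vesicle SNARE gene, was at 78.8 ± 1.79 CPM with DSF and 64.5 ± 3.99 CPM with DMSO, and Rab11a, a recycling endosome GTPase gene, at 76.3 ± 0.818 and 67.7 ± 2.67 CPM. Their adjusted p by edgeR's test were 4.62e-05 and 0.00727, and that of Rab11a was 0.0556 without DMSO library 2. Rab11a also missed the threshold by limma on log2(TPM + 0.5) (limma's adjusted p = 0.142). Srgn, which encodes the granule proteoglycan serglycin, was at 314 ± 17.1 and 335 ± 14.9 CPM, also short of it (edgeR's adjusted p = 0.0898, or 0.0191 without DSF library 1 and 0.0432 without DMSO library 3).

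The genes whose log2 CPM followed each chemokine or cytokine gene most closely over the 6 libraries were taken from 10209 others of at least 5 CPM. For Ccl3 they were Arhgap25 and Kti12 (Pearson's r = 0.998 for both), and for Ccl4 they were Akap1 and Sv2c (r = 0.997 for both). Xcl1 was followed by Scamp2 and Tapbp (r = 0.996 and 0.995), and Il16 by Gm14308 and Ctps (r = 0.999 for both). Ccl5 was followed by Tmem59 and the pseudogene Rpl36a-ps2 (r = 0.986 and 0.972), and Ifng by Alg5 and Naa15 (r = 0.993 and 0.99). With 6 libraries in 2 groups and this many genes, such values describe how levels moved together, the gap between groups included. They carry no p.

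Promoter windows from RefSeq (GRCm38.p6), 250 bases before to 50 bases after each start, were matched for 5 of the 8 genes, which were Ccl3, Xcl1, Ifng, Csf2 and Il16, with 7 windows in all. Those of Ccl3, which fell, and Ifng, which did not pass, are shown 5′ to 3′ on the gene's strand, with capitals for matches to the motifs searched.
Ccl3, chr11:83649329-83649628, minus strand: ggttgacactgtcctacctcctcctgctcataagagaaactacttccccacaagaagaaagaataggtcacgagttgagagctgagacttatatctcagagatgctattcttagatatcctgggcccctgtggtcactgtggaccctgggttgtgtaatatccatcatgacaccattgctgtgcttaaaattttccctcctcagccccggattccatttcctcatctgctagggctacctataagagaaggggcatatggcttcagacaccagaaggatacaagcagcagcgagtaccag
Ifng, chr10:118440796-118441095, plus strand: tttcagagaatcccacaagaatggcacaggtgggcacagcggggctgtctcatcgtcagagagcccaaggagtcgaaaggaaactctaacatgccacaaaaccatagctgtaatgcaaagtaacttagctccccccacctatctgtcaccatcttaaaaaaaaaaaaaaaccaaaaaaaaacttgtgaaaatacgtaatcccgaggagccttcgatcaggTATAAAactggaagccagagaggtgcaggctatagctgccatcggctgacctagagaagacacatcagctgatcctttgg

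The motifs, searched on both strands, were the TATA box TATAAA, found in 13.6% of 32851 mouse promoter windows, the NF-kappaB motif (1.63%), AP-1 TGANTCA (7.81%), CREB/ATF TGACGTCA (1.79%), NFAT TGGAAA (21.4%) and T-box AGGTGTGA (1.28%). The Ifng window held the TATA box, 30 to 25 bases before the start, and none of the other motifs. The windows of Ccl3 and Xcl1 held none of these letters. Csf2 held TGGAAA, and among the 3 windows of Il16 one held the NF-kappaB motif and another held TGANTCA and TGGAAA. The Csf2 window, at 54249850 to 54250149 on the minus strand, lies wholly before the GENCODE M21 start at 54249667. It leaves out the bases just before that start, which were not searched. No match says only that the letters are not in the window.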

How the data were processed

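Per the labels' protocols, a SMARTER kit turned total RNA into libraries, and the submitters' processing notes name GRCm38 (mm10) as build. The sources used here name no aligner, counting program or strandedness. One deposited table holds an expected count per gene and library, not normalised and not always whole. It also holds TPM per library, and the authors' fold ratio, log2 fold change, p-value and adjusted p-value, per the file headers. A second deposited table adds comparisons with a group coded DC, which the labels do not explain and of which no library was analysed here.

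The columns name no treatment. The deposited mean headed DF equals the mean of the B columns and that headed DO the mean of the A columns in all 55536 genes within 0.0001 TPM, and the numbers were read as replicate numbers. Unused per-library columns numbered 0.

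Because the test takes whole numbers, expected counts were rounded. filterByExpr kept 14318 genes and left out 41218. Library sizes were scaled by TMM (factors 0.9952 to 1.0053) and tested with the robust quasi-likelihood test of edgeR 4.0.16 (R 4.3.3) on group alone, at an adjusted p under 0.05. SE was the size of the log2 fold change divided by the root of F. CPM of single genes used the TMM factors and summed marker levels the plain library totals. DESeq2 1.42.0 and limma 3.58.1 gave alternatives. The fits were also run on simulated counts with the same spread beyond counting error for every gene. That run does not cover genes that differ in spread. Replicate libraries differed beyond counting error (chi-square per degree of freedom 2.16 to 4.01). Floors and intervals cover counting error only. Log2 CPM used a prior count of 2.

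All 55536 identifiers were found in GENCODE M21. The 3′ UTR was that of the protein-coding transcript with the longest one. In each list the 3 tested genes of smallest p with at least 1 CPM were named, and for each member of at least 5 CPM the 2 genes of highest r. Markers and the genes Tbx21, Zfp36, Gbp2, Irf1, Il2, Ccl22, Ccl25 and Il10rb fall outside this rule and were chosen after their values were seen. Some genes the rule names are not reported here. Members and lists were chosen with earlier results of these data known, and the UTR and promoter searches were added later.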

Additional observations from a re-analysis of the deposited data

Results flagged for a closer look

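A further deposited table compares a group coded DC, not explained by the labels, with both groups above and with no libraries here, so each value below is the authors' own, without SD or n. The authors' deposited table called 7.11% of 26894 genes between DC and DF at an adjusted p under 0.05, and 0.345% of 26951 between DC and DO. In the authors' deposited table Ccl4 had a log2 fold change of 1.186 for DC over DF (adjusted p = 1.36e-08), beside -0.129 for DC over DO (adjusted p = 1) and -1.318 for DF over DO. Ccl3 had a log2 fold change of 0.661 for DC over DF (adjusted p = 0.00321) in the authors' deposited table, beside -0.269 for DC over DO (adjusted p = 1) and -0.933 for DF over DO. These comparisons share their libraries with each other, so the values are not independent.

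The other 6 genes did not pass an adjusted p of 0.05 for DC over DF in the authors' deposited table. Their log2 fold changes there were 1.00 for Csf2, 1.62 for Il10, 0.30 for Xcl1, 0.11 for Il16, 0.05 for Ifng and -0.06 for Ccl5.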

How the results depend on the processing

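The 7 tested genes were refitted under 13 alternatives each, and 83 of the 91 values kept their direction and their side of the threshold. Ccl3, Ccl4 and Il16 were lower under all 13. Xcl1 missed the threshold by limma on log2(TPM + 0.5) and log2(TPM + 0.1), at log2 fold changes of -0.56 and -0.57 (limma's adjusted p = 0.0508 and 0.0507). Csf2 passed in both, at -0.68 and -0.82 (adjusted p = 0.0148 and 0.0175), and by edgeR with upper-quartile factors, at -0.89 (adjusted p = 0.0498). Ifng ran from -0.18 to -0.10 as each library was left out and passed without DSF library 1, and Ccl5 ran from -0.0108 to 0.0999, reversed without DSF library 3. The same TPM fits called 1347 and 1338 genes (538 and 533 lower, 809 and 805 higher), against 3276 by edgeR. The cause was not tested for any of these. Whether replicate numbers pair the libraries was not settled. Same-numbered libraries correlated weakly in their deviations, at 0.045, 0.035 and 0.055, yet each correlated best with its own number. Libraries of unlike number correlated at -0.052 to 0.004. With the replicate number as a block edgeR called 3829 genes, against 3276 without it. With the replicate number as a block, Ifng passed at -0.13 (edgeR's adjusted p = 0.0299). Among the values of the other named genes 391 kept their call, 16 lost it, 7 gained it and 2 reversed, both for Tmem59 (-0.0037 and -0.0045 without DSF library 2 or 3, in a range up to 0.0421). Il10 was too scarce for these fits, apart from one without a filter (log2 fold change -1.57, edgeR's adjusted p = 0.425). Fewer than 30 counts per library limit Csf2.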
